A study of Mus musculus with 2 samples.

Results

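The miR-34 and miR-449 family was examined in the adrenal glands of newborn mice. Its members are 6 miRNA genes, taken by name but with earlier results of these data known. Mir34b and Mir34c form a pair, Mir449a, Mir449b and Mir449c form a cluster, and Mir34a stands alone. All 6 had a row among the 1973 miRNA genes counted. The mice were B6NCrl animals on postnatal day 0, and the sequenced RNA was shorter than 30 nucleotides, a range that takes in mature miRNAs. Each of the 2 libraries held the 2 adrenals of 1 pup, the pups came from the same pregnancy, and no treatment, mutation or other tissue was included. They are called pup 2 and pup 1 after the numbers in the labels. The labels give both the same donor identifier, so if a single animal was meant, the differences between the pups are technical. Sex was not collected. An adrenal gland holds cortical, chromaffin, vascular and other cells, and in such bulk tissue fewer cells of a type and less RNA per cell cannot be told apart.

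MiRNAs are short RNAs cut from hairpin transcripts; they pair with target transcripts mainly through the seed, bases 2 to 8 of the mature sequence, and lower their output. The miR-34 genes are the best known miRNA targets of the tumour suppressor p53 and act against cell cycle genes. Mir34b, Mir34c and the miR-449 genes are also known from multiciliated epithelia, such as those of the airway and oviduct, where they act together in the formation of motile cilia. Members of a family with the same seed can lower overlapping sets of targets, so the summed level of the family is given beside that of each gene. Gene counts add the 5p and 3p arms of a hairpin, and the 3p seeds differ from the 5p seed. The sum is therefore not a level of the shared seed alone.

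The mature sequences are shown because the shared seed defines the family and the bases after it tell the members apart. They are from the RefSeq table of GRCm38.p6, the assembly also called mm10, and run 5′ to 3′ with the seed in capitals. The table held 9 mature entries from 5 of the 6 genes. miR-34c-5p and Mir449b are named without a sequence.
miR-449a-5p: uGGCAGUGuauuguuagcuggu
miR-449c-5p: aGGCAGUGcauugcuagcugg
miR-34b-5p: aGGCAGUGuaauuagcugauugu
miR-34a-5p: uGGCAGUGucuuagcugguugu
miR-34b-3p: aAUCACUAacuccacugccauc
miR-34c-3p: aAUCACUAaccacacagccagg

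The 4 printed 5p arms carry 1 seed, and none of the other entries among the 1738 mature sequences of the table had it. The 3p arms of Mir34b and Mir34c share a second seed, which no entry outside the family held either. None of the 9 mature entries of the family occurred whole in the hairpin of another gene in the table, whereas 7.08% of the table's mature sequences did. miR-34c-5p and Mir449b had no entry and were not compared. The nearest entry was miR-34b-5p, which matched a stretch of the Mir34c hairpin with 2 mismatches and no gap. A read of this arm with errors could thus be placed on the other gene of the pair. Whether reads of miR-34c-5p with errors could be placed on Mir34b was not examined, because its sequence was missing. Also without gaps, miR-449c-5p came within 3 mismatches of the Mir449a hairpin and miR-449a-5p within 4 of the Mir449c hairpin. Counted in this way, miR-34a-5p stayed at 6 or more mismatches from every other hairpin of the table. With gaps allowed, 4 bases exchanged, added or left out separated miR-34a-5p from miR-34b-5p.

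On mm10, Mir34b (ENSMUSG00000065492.1) lies at chr9:51103562-51103645 and Mir34c (ENSMUSG00000065587.1) at chr9:51103034-51103110, both on the minus strand and 451 bases apart. Both hairpins lie opposite an intron of a transcript of Btg4, which runs on the plus strand. The miR-449 genes lie on the plus strand in an intron of Cdc20b. They are Mir449c (ENSMUSG00000076146.1, chr13:113035983-113036091), Mir449b (ENSMUSG00000078027.1, chr13:113037419-113037498) and Mir449a (ENSMUSG00000065575.1, chr13:113037534-113037624), the last 35 bases after Mir449b. Mir34a (ENSMUSG00000065493.1) lies on the plus strand at chr4:150068454-150068555, and the last 17 bases of its hairpin overlap the start of Gm37795, a transcript with status still to be verified.

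On the strand of the miRNA genes, 3327743 counts were found in pup 2 and 1131762 in pup 1, which made pup 2 the deeper library by a factor of 2.94. Levels are counts scaled to a gene total of 1000000 (CPM), so 3 counts, the limit that a count of 0 allows, stand for 0.902 CPM in pup 2 and for 2.65 in pup 1. Intervals cover counting error only and treat each read as an independent molecule. Reads copied by PCR are not independent, so the intervals can be too narrow. Detection required at least 10 CPM in each library. Of all 1973 genes, 275 (13.9%) were detected; of the 6 members, Mir34a, Mir34b, Mir34c and Mir449a were. The endothelial miRNA Mir126a (91954 ± 14614 CPM, SD, n = 2) and the neuroendocrine miRNA Mir375 (34000.3 ± 5070 CPM) were abundant, and the hepatocyte miRNA Mir122 had 3529.98 ± 779 CPM. Mir7-1, the other neuroendocrine marker, had 373 ± 92.2 CPM. The marker list held no miRNA specific to the adrenal gland, so the label itself was not checked.

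Mir34c supplied most reads of the family. The gene had 11491 counts in pup 2, or 3453 CPM (exact Clopper-Pearson 95% interval 3390.3 to 3517), and 4425 counts in pup 1, or 3909.8 CPM (3796 to 4027). It ranked 44th in pup 2 and 41st in pup 1 among all genes. It was lower in pup 2 than in pup 1, and in both it was far above every other member. The mean was 3681 ± 323 CPM (SD, n = 2).

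Mir34b, cut from the same stretch of chromosome, was measured at a much lower level. It had 521 counts in pup 2, or 157 CPM (143 to 171), and 139 counts in pup 1, or 123 CPM (103 to 145), with a mean of 139.7 ± 23.9 CPM (SD, n = 2). Mir34b thus stood 22.1-fold below Mir34c in pup 2 (95% counting interval 20.2 to 24.1) and 31.8-fold below it in pup 1 (26.9 to 37.97). It gave 4.34% of the reads of the pair in pup 2 (exact 95% interval 3.98 to 4.72) and 3.05% in pup 1 (2.57 to 3.59). The direction was the same in both pups, and the gap between the genes was larger than the spread between the pups, with a mean log2 ratio of Mir34b over Mir34c of -4.73 ± 0.37.

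**Figure D1:**
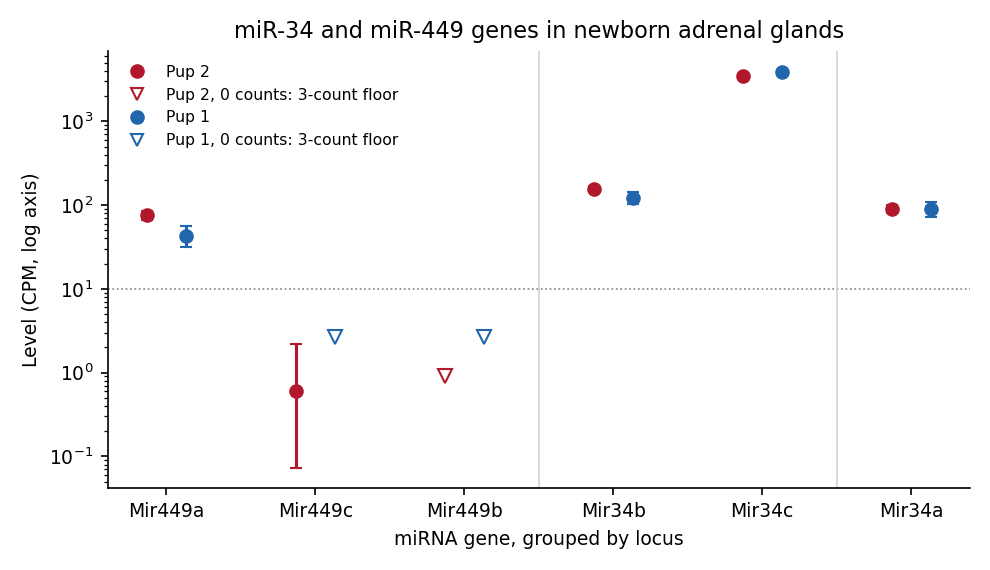
Level of each member in each library (CPM on a log axis), with pup 2 in red left of pup 1 in blue and exact 95% counting intervals; open triangles mark the limit of 3 counts for a library with 0 counts, and the dotted line marks 10 CPM. Mir34c stands at 3453 CPM in pup 2 and 3909.8 CPM in pup 1, Mir34b, Mir34a and Mir449a lie between 42.4 and 157 CPM, and Mir449c and Mir449b lie below 10 CPM.

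Mir34a, the member most often studied as a p53 target, was present at a low level that hardly differed between the littermates. It had 300 counts in pup 2, or 90.2 CPM (80.2 to 101), and 101 counts in pup 1, or 89.2 CPM (72.7 to 108). The mean was 89.7 ± 0.643 CPM (SD, n = 2), which placed it at rank 191 of all genes. Both counting intervals are far wider than this SD, so the SD overstates how closely the level is known. Mir34b was 1.74-fold higher than Mir34a in pup 2 (1.504 to 2.01) and 1.38-fold higher in pup 1 (1.06 to 1.80), so the order of these neighbours was the same in both libraries and both counting intervals lay above 1.

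Of the miR-449 cluster, Mir449a was the member with more than a trace of reads. It had 253 counts in pup 2, or 76.0 CPM (66.9 to 86.0), and 48 counts in pup 1, or 42.4 CPM (31.3 to 56.2). The mean was 59.2 ± 23.8 CPM (SD, n = 2), at rank 215. Mir449a was lower than Mir34a in both pups, with 0.843 of its counts in pup 2 (0.711 to 1.0003) and 0.475 in pup 1 (0.330 to 0.677), and in pup 2 the interval reached past equality. These neighbours in the order of levels are therefore not set apart by the counts of pup 2.

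The other genes of the cluster were at or near 0. Mir449c had 2 counts in pup 2, or 0.601 CPM (0.0728 to 2.17), and 0 counts in pup 1, which allows up to 2.65 CPM. Mir449b had 0 counts in both libraries, so its level could reach 0.902 CPM in pup 2 or 2.65 CPM in pup 1 and stay unseen. The counts of Mir449a stood 84.3-fold above the limit of 3 counts for Mir449b in pup 2 and 16.0-fold above it in pup 1. Over Mir449c, the ratio was 126.5 in pup 2, with a counting interval from 34.7 to 1050. In pup 1 the counts of Mir449a stood 16.0-fold above the limit for Mir449c. The values set against the limit leave out the counting error of Mir449a itself. A level of Mir449c in pup 1 like that in pup 2 was not detectable at its depth.

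The 3 loci were then compared within each library, where library size cancels. The Mir34b and Mir34c pair had 3609.7 CPM in pup 2 against 4033 in pup 1. The miR-449 cluster summed to 76.6 CPM in pup 2 against 42.4 in pup 1. All 6 members together reached 3776 CPM in pup 2 against 4164 in pup 1. The family thus made up 0.378% of all miRNA gene counts in pup 2 and 0.416% in pup 1. Within it, the pair gave 95.6% (exact 95% interval 95.2 to 95.9) in pup 2 and 96.8% (96.3 to 97.3) in pup 1. Mir34a gave 2.39% (2.13 to 2.67) in pup 2 and 2.14% (1.75 to 2.60) in pup 1, and the cluster gave 2.03% (1.79 to 2.29) in pup 2 and 1.02% (0.752 to 1.35) in pup 1.

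The pair had 40.04 times the counts of the Mir34a locus in pup 2 (95% counting interval 35.7 to 45.1) and 45.2 times in pup 1 (37.1 to 55.6). The mean log2 ratio was 5.41 ± 0.12 (SD, n = 2). The 9 mature entries of the family are 21 to 23 bases long, and counts were not divided by length; read lengths were not analysed here. Per base of hairpin, the mean log2 ratio was 5.81. Taken as the mean of the genes at each locus in place of their sum, it was 4.41, since the pair has 2 genes.

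The miR-449 cluster had 0.85 times the counts of the Mir34a locus in pup 2 (0.716 to 1.01) and 0.475 times in pup 1 (0.330 to 0.677), a mean log2 ratio of -0.65 ± 0.59. Against the pair, the cluster was 47.1-fold lower in pup 2 (41.6 to 53.5) and 95.1-fold lower in pup 1 (71.6 to 129), a mean log2 ratio of -6.06 ± 0.72. The exact two-sided sign-flip permutation test over the 2 pups gave p = 0.5 for each of the 3 contrasts, which is the smallest p that 2 pups allow. The pair over Mir34a and the cluster over the pair had means many times their spread between the pups, whereas the cluster over Mir34a had a spread nearly as large as its mean.

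**Figure D2:**
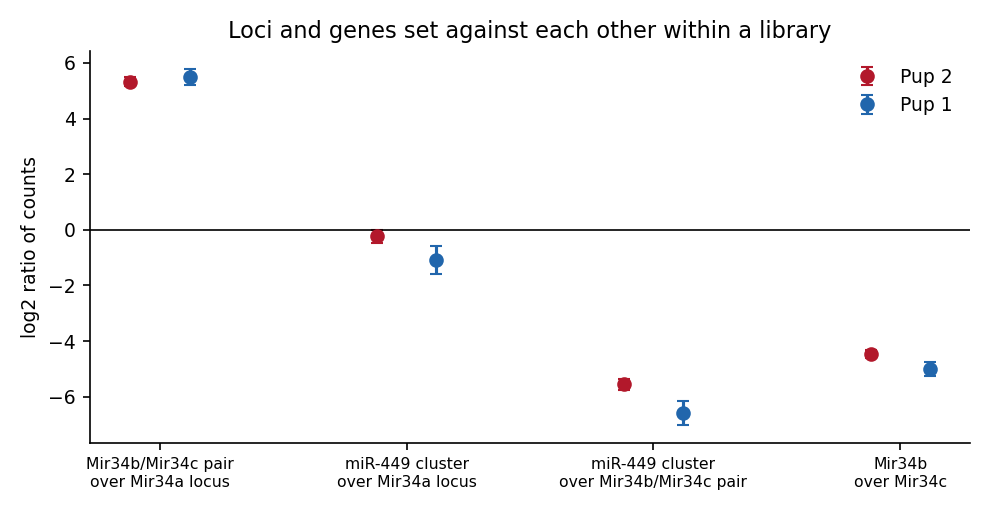
Log2 ratio of counts between loci, and between Mir34b and Mir34c, within each library, with pup 2 in red left of pup 1 in blue and 95% counting intervals as bars. The pair lies above 5 over Mir34a and the cluster below -5 over the pair in both pups, while the interval of the cluster over Mir34a in pup 2 touches 0.

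The littermates were compared to see which members differed between glands of 1 litter. With 1 library per pup there is no test, and ratios are given with counting intervals. A mean of at least 10 CPM was reached by 284 genes, of which 10 (3.52%) stood 2-fold or more above pup 1 in pup 2, and 5 (1.76%) stood 2-fold or more below it, 5.28% in all. From a mean of 1 CPM the balance turned, with 24 higher and 39 lower of 432 genes. That filter lies below the limit of 3 counts in pup 1, 2.65 CPM, so it can admit genes with few or no counts there. None of the 4 members with a mean of at least 10 CPM passed 2-fold. This small number against the background of 5.28% says nothing particular about the family.

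Mir449a differed most between the pups among these 4 members. Its level was 76.0 CPM in pup 2 against 42.4 CPM in pup 1, a ratio of 1.79 (95% counting interval 1.31 to 2.49). Of the 284 genes, 13 had a larger log2 ratio of pup 2 over pup 1. Among the 40 genes nearest to it in mean level, between 37.7 and 89.7 CPM, 3 had a larger log2 ratio, the median was 0.07, and the range was -1.57 to 2.83; Mir449a stood at 0.83. The 3 epithelial markers Mir429, Mir200c and Mir205 summed to 482 CPM in pup 2 against 196 in pup 1, none of them at 0. Other epithelial miRNAs stood the other way, with Mir203 at 667 CPM in pup 2 against 709.5 in pup 1 and Mir183 at 277 against 313. The part of epithelial RNA in the Mir449a difference was not tested. The skeletal muscle miRNA Mir206 had 411 CPM in pup 2 and 82.2 CPM in pup 1. Mir133b, the other skeletal muscle marker, was near 0, with 4 counts in pup 2 and 0 in pup 1. The part of muscle RNA in the Mir449a difference was not tested either.

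The miR-34 genes differed less. Mir34b had a ratio of 1.27 of pup 2 over pup 1 (1.06 to 1.55), Mir34a of 1.01 (0.804 to 1.28) and Mir34c of 0.883 (0.853 to 0.915). In log2 terms they stood at 0.35, 0.01 and -0.18, beside a median of 0.08 over all 284 genes with quartiles at -0.22 and 0.36. Mir34a and Mir34b lie within those quartiles and so does Mir34c. Scaling by edgeR's TMM factors moved the median of all genes up by 0.10, and with it Mir34c stood at -0.07, Mir34a at 0.12 and Mir34b at 0.45.

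**Figure D3:**
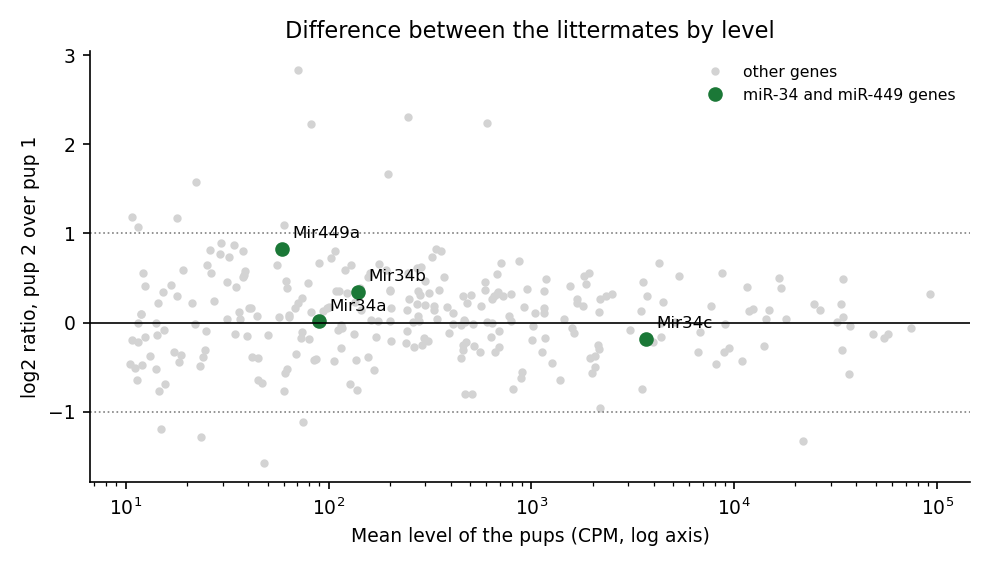
Log2 ratio of pup 2 over pup 1 against the mean level of the pups (CPM, log axis) for the 284 genes whose mean reached 10 CPM, members in green and other genes in grey; dotted lines mark 2-fold. The 4 green points lie between the lines, with Mir449a at 0.83 the highest and Mir34c at -0.18 the lowest.

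The balance within the family also shifted between the libraries. Mir34b relative to Mir34c was 1.44 times as high in pup 2 as in pup 1 (exact conditional 95% interval of the odds ratio 1.19 to 1.76). The cluster relative to the pair was 2.02 times as high in pup 2 (1.47 to 2.81), and the cluster relative to Mir34a was 1.79 times as high (1.20 to 2.68). The pair relative to Mir34a was 0.886 times as high (0.698 to 1.12), an interval that includes 1. These values compare the reads of 2 libraries and carry no estimate of the spread between animals beyond them.

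Mir34b and Mir34c were set beside other neighbouring miRNA genes to see how unequal neighbours were where both had a mean of 10 CPM or more. Adjacent genes on 1 strand within 10 kb that met this filter gave 81 other pairs, some of which share a gene. The filter leaves out neighbours of which 1 is near 0, such as Mir449b and Mir449a. The values below therefore do not describe all neighbouring genes. The absolute log2 difference in mean CPM was 4.72 for Mir34b and Mir34c, against a median of 2.40 and a range of 0.15 to 7.27 over the other pairs. Of these, 18 differed more and 63 less. Larger gaps were those of Mir30c-1 and Mir30e, Mir199a-2 and Mir214, and Mir23a and Mir27a, with absolute log2 differences of 7.27, 6.86 and 6.80. Smaller ones included Mir16-1 and Mir15a at 0.37 and Mir221 and Mir222 at 0.24. Reads that map to several loci were not counted, which lowers genes with copies elsewhere, such as Mir30c-1, Mir199a-2 and Mir16-1. How much this changes each difference was not tested. The log2 ratios of the pups differed by 0.53 between Mir34b and Mir34c, against a median of 0.38 over the other pairs, of which 25 differed more.

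**Figure D4:**
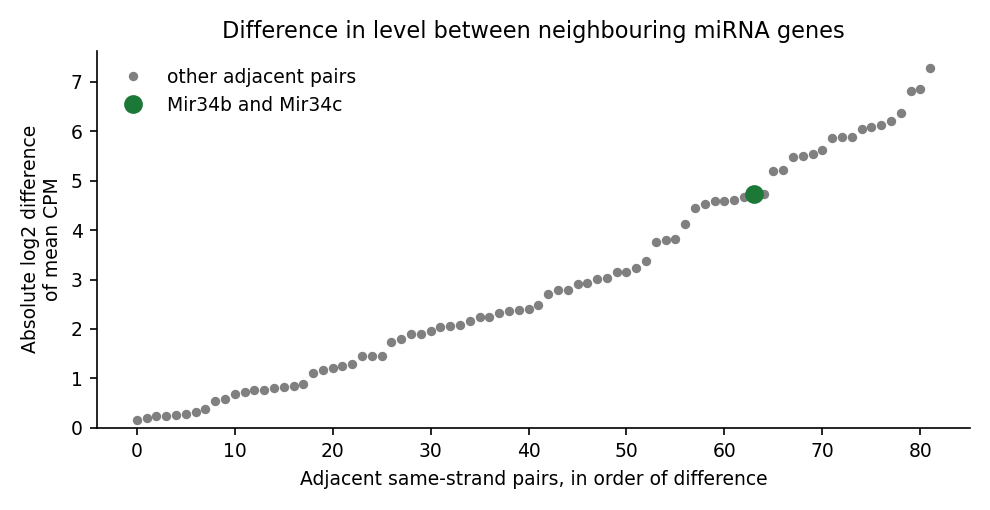
Absolute log2 difference in mean CPM between adjacent miRNA genes on 1 strand within 10 kb, in order of size, with Mir34b and Mir34c in green and 81 other pairs in grey. Both genes of each pair had a mean of 10 CPM or more. The green point lies at 4.72, above 63 and below 18 of the other pairs.

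Other miRNAs known as linked to p53 were taken as a list of 11 genes, all of which were measured. The list held Mir143 and Mir145a, the smooth muscle cluster; Mir15a and Mir16-1, which act against cell cycle and survival genes; Mir107; Mir192, Mir194-1, Mir194-2 and Mir215; and the epithelial Mir200c and Mir141. Of these, 9 were detected, where 13.9% of all genes were, and had a mean of 10 CPM or more, with a median level of 461 CPM, beside a median of 275 CPM over the 284 genes. None was 2-fold higher in pup 2 and 1 of 9, Mir215, was 2-fold lower (1.76% of the 284 genes were), with 23.7 CPM in pup 2 against 72.5 in pup 1. The median log2 ratio was 0.39, against 0.08 over the 284 genes, and 7 of 9 were higher in pup 2, against 165 of the 284. Mir143 led with 16985 ± 3226 CPM (SD, n = 2), followed by Mir15a with 2342 ± 346 CPM and Mir16-1 with 1808 ± 462 CPM. Reads that map to several loci were not counted, which can lower genes with copies elsewhere, such as Mir16-1, Mir194-1 and Mir194-2. How far their levels were lowered was not tested. Mir34c, at 3681 CPM, stood between Mir143 and Mir15a, while Mir34a was near Mir200c, which had 138 CPM in pup 2, above Mir34a there, and 78.6 CPM in pup 1, below it.

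Because Mir34b, Mir34c and the miR-449 genes are known from ciliated epithelia, 8 other miRNAs of epithelial cells were read beside them. All were measured, and 7 were detected, against 13.9% of all genes, with a median level of 197 CPM. Mir203, a miRNA of differentiating epidermis, had 688 ± 30.0 CPM (SD, n = 2), Mir183 had 295 ± 25.05 CPM and Mir182 had 277 ± 48.7 CPM. In this list 2 of 7 genes, Mir200b and Mir429, passed 2-fold upwards in pup 2 (3.52% of the 284 genes did) and none downwards. The median log2 ratio was 0.38, with 5 of 7 higher in pup 2, against 165 of the 284 genes, and Mir203 and Mir183 lower. Summed, the 8 genes had 1817 CPM in pup 2 against 1471 in pup 1. Mir34c alone was above that sum in both pups, and Mir449a was near Mir96, which had 70.6 CPM in pup 2 and 53.9 CPM in pup 1.

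By their levels in the 2 libraries, the genes most like each detected member were found as the 3 with the smallest distance in log2(CPM + 1). With 2 libraries this measures likeness of level and little else. For Mir34c they were Mir151, Mir17 and Mir423, at distances from 0.16 to 0.34. For Mir34b they were Mir101a, Mir181b-2 and Mir222, at 0.06 to 0.17, and for Mir34a they were Mir218-2, Mir138-1 and Mir495, at 0.11 to 0.22. Mir199b, Mir181a-2 and Mir32 were nearest to Mir449a, at 0.16 to 0.28.

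On the strand opposite to the members, Mir34b had 3 counts in pup 2, beside 521 on its own strand, and 0 in pup 1. The other 5 members had 0 in both pups. The tables do not separate the 5p and 3p arms of a hairpin, so each level sums both arms of its gene. Reads mapping to several loci, 32.2% of all reads in pup 2 and 34.9% in pup 1, are in no gene count.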

How the data were processed

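Each library has 1 table of unscaled counts for miRNA genes, which the authors deposited, with reads placed on mm10 with GENCODE M4 per the sample notes deposited beside them. An aligner and any trimming were not given in the sources used here. Each table has 4 rows that name no gene and 3 count columns, read in order as unstranded, the strand of the gene and the opposite strand. Levels use the middle one of these count columns. The rows that name no gene held 47.3% of reads in pup 2 and 49.6% in pup 1 and were left out. Gene identifiers were matched to GENCODE M21 of the same assembly, which named 1894 of 1973 rows and all members with the same version.

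Computed here were CPM over the gene total, log2 ratios with a prior of 1 CPM, exact Clopper-Pearson intervals, exact conditional intervals of Poisson ratios and of odds ratios (scipy 1.17.1, Python 3.11.15), and library factors by edgeR 4.0.16 (TMM) and DESeq2 1.42.0 in R 4.3.3. The ratio and its interval were tested on simulated Poisson counts, which hold neither PCR copies nor a spread between animals. Alternatives changed the library size, prior, filter, count column, length and replicate. The members and lists were chosen with earlier results of these data known. Named genes were the members, the 3 genes nearest to each in level, the 3 most abundant of each list and genes next to the members; any other was chosen after its values were seen. The leukocyte marker Mir142 was not matched by name and is not used here.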

Additional observations from a re-analysis of the deposited data

How the results depend on the processing

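Every locus contrast, and Mir34b over Mir34c, kept its direction under all alternatives run. With pup 1 or pup 2 left out, the log2 ratio ran from 5.32 to 5.50 for the pair over Mir34a, from -1.07 to -0.23 for the cluster over Mir34a, from -6.57 to -5.56 for the cluster over the pair and from -4.99 to -4.46 for Mir34b over Mir34c. Per hairpin base the pair over Mir34a was 5.81, and with the mean per gene it was 4.41 and the cluster over Mir34a -2.24; these follow from the lengths and numbers of genes. Dividing by all reads in place of gene counts gave levels of 1968 CPM for the pair, 30.9 for the cluster and 46.2 for Mir34a, and unstranded counts gave 86.8 for Mir34a, where the denominator alone changes. In log2 terms pup 2 over pup 1 for the whole family was -0.14, and -0.035 with TMM or -0.075 with all reads; for the pair it was -0.16, and -0.054 with TMM or -0.094 with all reads. The number of genes at least 2-fold apart was 15 of 284, and 63 of 432 (24 higher in pup 2, 39 lower) from a mean of 1 CPM and 4 of 188 from a mean of 100 CPM, which test other genes. No locus was near 0, so no prior was used in the contrasts. Depth limits Mir449b and Mir449c, and whether other genes share the sequence of Mir449b was not checked.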
